A study of Mus musculus with 8 samples.

Results

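The Fc gamma receptors of mouse neutrophils and the chain that carries their signal were followed in aOX40-treated and IgG-treated mice bearing B16 tumours, a mouse melanoma line. The 6 genes are the activating receptors Fcgr1, Fcgr3 and Fcgr4, the inhibitory receptor Fcgr2b, the shared signalling chain Fcer1g and the kinase Syk. They were taken by gene symbol and none was dropped for its values, but the family was chosen with earlier results of these data known. All 6 were found among the 18187 symbols of the table. All 6 also passed the filter on low counts that left 13278 genes to test. There were 3 libraries of mice treated with aOX40 (replicates 1 to 3) and 5 of mice treated with IgG (replicates 2 to 6). OX40, the product of Tnfrsf4, is a receptor that costimulates T cells. The labels call the cells neutrophils of B16 tumours and give no strain, age, genotype, treatment dose, time point, antibody clone or isotype. They also do not say how the cells were isolated or whether each library came from its own animal, so the p-values cover only the spread from library to library, part of which may be technical.

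Fc gamma receptors bind the constant part of IgG and so let myeloid cells respond to antibody-coated targets. The activating receptors of the mouse pair with the FcRgamma chain, the product of Fcer1g, whose ITAM (immunoreceptor tyrosine-based activation motif) is phosphorylated by Src family kinases and then recruits Syk. Fcgr2b carries an inhibitory motif in its own tail and recruits phosphatases, so that the balance of activating to inhibitory receptors is often used to describe how readily a cell responds to IgG. Mouse neutrophils are known to carry Fcgr3 and Fcgr4 at the surface, and Fcgr1 is the high-affinity receptor best known on monocytes and macrophages.

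On the GRCm38 assembly, in GENCODE release M21, 4 of the 6 genes lie on chromosome 1. Fcgr2b (chr1:170958617-170976547, minus strand), Fcgr4 (chr1:171018920-171029761, plus strand) and Fcgr3 (chr1:171051174-171064935, minus strand) lie within 106 kb. Fcer1g (chr1:171229572-171234365, minus strand) follows, and the stretch from Fcgr2b to Fcer1g is 276 kb long. Fcgr1 lies at chr3:96282909-96293969 on the minus strand and Syk at chr13:52583173-52648792 on the plus strand.

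Fcgr2b and Fcgr3 are near copies in their extracellular parts, which bears on how their reads can be told apart. Their longest transcripts share an identical run of 129 bases inside both coding sequences, at bases 402 to 530 of Fcgr2b-201 and 313 to 441 of Fcgr3-201. The run is shown because no read that lies inside it can be assigned to one of the genes by its sequence.
Run shared by Fcgr2b and Fcgr3 (chromosome 1): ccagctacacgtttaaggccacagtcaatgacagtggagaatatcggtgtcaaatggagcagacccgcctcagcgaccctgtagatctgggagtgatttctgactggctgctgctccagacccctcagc
Of all stretches of 50 bases, 12.8% of those in Fcgr3-201 (166 of 1298) and 4.75% of those in Fcgr2b-201 (166 of 3495) occur in the other transcript. No such stretch was shared by any other pair of the 6 genes. The deposited estimated counts of Fcgr2b carried fractions in 8 of 8 libraries, whereas those of Fcgr3, Fcgr4 and Fcgr1 were whole numbers in 8 of 8, within 0.01. Fractions were not particular to Fcgr2b, as Fcer1g was whole in only 3 of 8 libraries and Syk in 1 of 8. Neither of these shares a stretch of 50 bases with another of the 6 genes. The values of the 6 genes carry no more than 6 digits, so a fraction could not show in Fcgr3 (155615 to 248521 counts). How reads were divided between genes is not stated in the sources used here, and its part in the Fcgr2b values was not tested. Fcgr2b also overlaps Gm38204 on the opposite strand, which held 0 counts in aOX40 libraries and 0 to 13 in IgG libraries.

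The 250 bases upstream of the 3 activating receptors are shown because these genes share a role and form the upper part of the ratio to Fcgr2b. The sequences are from RefSeq (GRCm38.p6), in which all 6 genes were matched. In all, 3 motifs were searched on both strands: the gamma activated site TTCNNNGAA, the core of the interferon stimulated response element (ISRE), and the ETS and PU.1 core GAGGAA. The motifs do not overlap one another in these sequences, and capitals mark each match.
Fcgr1 upstream of its start (chr3:96293970-96294219, minus strand): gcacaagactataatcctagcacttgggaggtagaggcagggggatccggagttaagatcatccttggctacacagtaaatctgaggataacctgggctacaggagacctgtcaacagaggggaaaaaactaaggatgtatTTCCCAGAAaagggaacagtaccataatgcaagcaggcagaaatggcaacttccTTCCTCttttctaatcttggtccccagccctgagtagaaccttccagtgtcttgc
Fcgr3 upstream of its first listed start (chr1:171059404-171059653, minus strand): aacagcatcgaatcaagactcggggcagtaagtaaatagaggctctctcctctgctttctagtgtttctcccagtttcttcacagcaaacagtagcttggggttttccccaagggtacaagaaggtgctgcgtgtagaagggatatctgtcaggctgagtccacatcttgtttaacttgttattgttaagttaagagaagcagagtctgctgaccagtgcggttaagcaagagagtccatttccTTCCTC
Fcgr4 upstream of its start (chr1:171018676-171018925, plus strand): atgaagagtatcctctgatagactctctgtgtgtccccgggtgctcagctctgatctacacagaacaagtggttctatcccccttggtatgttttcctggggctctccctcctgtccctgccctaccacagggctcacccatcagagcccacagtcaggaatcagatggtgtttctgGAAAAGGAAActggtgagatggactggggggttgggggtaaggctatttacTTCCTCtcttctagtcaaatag
Of these windows, the one of Fcgr1 holds 0 bases of M21 exons, that of Fcgr3 holds 27 and lies inside the M21 gene, and that of Fcgr4 holds 6. Among the 6 genes the gamma activated site matched in Fcgr1 alone, as TTCCCAGAA with its first base 109 bases before the start. The interferon element core matched in Fcgr4 alone, as GAAAAGGAAA, 73 bases before the start. The ETS and PU.1 core, read as TTCCTC on the strand shown, began 55 bases before the start of Fcgr1, 6 before that of Fcgr3 and 22 before that of Fcgr4. It also lay 9 bases before the second listed start of Syk, and it had no match in this window of Fcgr2b or Fcer1g. Of the 250 bases of the Fcgr2b window, however, 203 lie in M21 exons, and in that of Fcer1g 16 do. The window of the first listed start of Syk, also without a match, has all 250 bases in M21 exons. Of 32851 promoter windows of the same length, 7.02% held the gamma activated site, 2.98% the interferon element core and 23.3% the ETS and PU.1 core. A match describes the letters of the window and was not tested for binding.

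The libraries held 69.6 to 73.5 M counts (M, mega) in aOX40 and 52.7 to 63.2 M counts in IgG, without overlap. Mitochondrial mRNA took 0.0998 to 0.152% of counts in aOX40 libraries and 0.0510 to 0.0811% in IgG libraries, also without overlap. Genes with at least 10 counts numbered 12715 to 13339 in aOX40 and 11382 to 12621 in IgG. The TMM factors used to scale the libraries ran from 1.07 to 1.27 in aOX40 and from 0.874 to 0.984 in IgG. Neither of these overlapped, so depth and these traits cannot be told apart from treatment. The neutrophil label was matched by abundant markers: 12 listed neutrophil genes, led by S100a9 and S100a8, summed to 18239 to 27513 counts per 1 M counts (CPM) in aOX40 and 17079 to 29648 CPM in IgG. Melanoma markers summed to 4.59 to 9.07 CPM in aOX40 and 5.77 to 15.4 CPM in IgG. Of 13278 genes tested, 750 passed an adjusted p of 0.05, with 351 higher and 399 lower in aOX40. That number was 0 without aOX40 replicate 2 (2230 at an unadjusted p under 0.05, edgeR), 59 without aOX40 replicate 3, and 320 with the older quasi-likelihood method, the default of the edgeR version used.

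The activating receptor genes Fcgr4 and Fcgr3 fell in aOX40 neutrophils, to fitted folds of 0.402 and 0.493 of their IgG levels. No member of the family rose. Fcgr1, Fcgr2b, Fcer1g and Syk did not pass the test, although all 6 fitted changes lay below 0. With 0 of 6 higher and 2 of 6 lower, the background was 2.64% of all tested genes called higher, 3.0% called lower and 5.65% called in either direction. The median log2 fold change of the 6 genes was -0.65, against 0.05 over all genes tested. In bulk RNA, fewer cells that carry a transcript and less of it per cell cannot be told apart.

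Fcgr4 encodes an activating receptor that binds mouse IgG2a and IgG2b. Its level was 370, 246 and 317 CPM in the 3 aOX40 libraries, against 780, 657, 894, 641 and 894 CPM in the IgG libraries. Every aOX40 library lay below every IgG library. Mean levels (± SD) were 311 ± 62.4 CPM over the 3 aOX40 libraries and 773 ± 123 CPM over the 5 IgG libraries, a fitted fold of 0.402 and a log2 fold change of -1.31 with an SE of 0.22 (adjusted p = 0.0140, edgeR's quasi-likelihood test with Benjamini-Hochberg adjustment). The call was lost without aOX40 replicate 2 (log2 fold change -1.17, adjusted p = 0.0829) and without aOX40 replicate 3 (-1.32, adjusted p = 0.0551, edgeR), with the direction kept.

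Fcgr3 encodes the low-affinity activating receptor that binds IgG1 among other subclasses. It was at 2239, 1746 and 1995 CPM in aOX40 libraries, against 5099, 3564, 4520, 2930 and 4086 CPM in IgG libraries. The groups did not overlap here either. Mean levels (± SD) were 1993 ± 246 CPM over the 3 aOX40 libraries and 4040 ± 839 CPM over the 5 IgG libraries, a fitted fold of 0.493 and a log2 fold change of -1.02 with an SE of 0.22 (adjusted p = 0.0266, edgeR). Without aOX40 replicate 2 the adjusted p was 0.136, without aOX40 replicate 3 it was 0.0900 and without IgG replicate 6 it was 0.0548 (edgeR), with log2 fold changes of -0.93, -1.01 and -1.02.

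Fcgr1, the high-affinity receptor gene, was scarce. It was at 2.10, 4.35 and 3.18 CPM in aOX40 libraries, against 2.28, 3.86, 7.29, 4.68 and 4.60 CPM in IgG libraries. The groups overlapped, with mean levels (± SD) of 3.21 ± 1.13 CPM over the 3 aOX40 libraries and 4.54 ± 1.82 CPM over the 5 IgG libraries. The log2 fold change was -0.49 (SE 0.45, adjusted p = 0.535, edgeR).

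Fcgr2b, the inhibitory receptor, was at 97.1, 89.8 and 56.2 CPM in aOX40 libraries, against 195.8, 85.8, 84.8, 111.6 and 39.1 CPM in IgG libraries. All 3 aOX40 values lay within the IgG range, which was set by replicate 2 at the top and replicate 6 at the bottom. Mean levels (± SD) were 81.0 ± 21.8 CPM over the 3 aOX40 libraries and 103 ± 57.9 CPM over the 5 IgG libraries, with a log2 fold change of -0.35 with an SE of 0.42 (adjusted p = 0.650, edgeR). Without IgG replicate 2 the log2 fold change was 0.01 (adjusted p = 0.989, edgeR), so that 1 library decides its sign.

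Fcer1g, the FcRgamma chain, was at 2007, 936 and 1100 CPM in aOX40 libraries, against 1595, 1587, 1540, 2338 and 2210 CPM in IgG libraries. Replicates 2 and 3 of aOX40 lay below every IgG library, and replicate 1 lay among the IgG values. Mean levels (± SD) were 1348 ± 577 CPM over the 3 aOX40 libraries and 1854 ± 387 CPM over the 5 IgG libraries, with a log2 fold change of -0.46 with an SE of 0.28 (adjusted p = 0.332, edgeR). Without aOX40 replicate 1 the log2 fold change was -0.86 (adjusted p = 0.0746, edgeR).

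Syk, the kinase that docks on the phosphorylated chain, was at 210, 163 and 265 CPM in aOX40 libraries, against 376, 308, 330, 448 and 398 CPM in IgG libraries. The groups did not overlap, yet the change missed the threshold. Mean levels (± SD) were 213 ± 51.0 CPM over the 3 aOX40 libraries and 372 ± 55.6 CPM over the 5 IgG libraries, with a log2 fold change of -0.80 with an SE of 0.22 (adjusted p = 0.0548, edgeR). Syk passed in 4 of 18 alternative analyses, among them DESeq2 (adjusted p = 0.00253), and its log2 fold change ran from -0.99 to -0.52 over the 18. Fcgr3, Fcgr4 and Syk were thus the 3 of 6 genes whose groups did not overlap, all lower in aOX40, where 7.75% of all tested genes were lower without overlap.

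**Figure D1:**
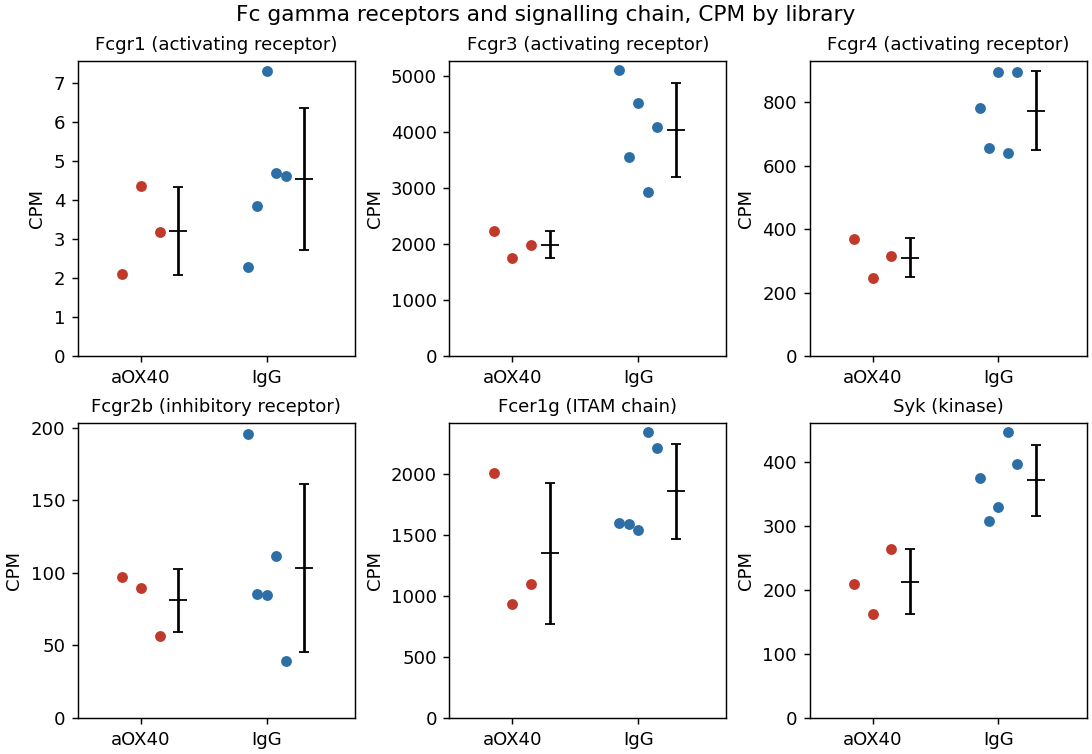
CPM of each gene (vertical axes, from 0) in the 3 aOX40 and 5 IgG libraries; each point is a library and the black mark with its bar is the mean ± SD. Fcgr3, Fcgr4 and Syk have every aOX40 library below every IgG library, while Fcgr1, Fcgr2b and Fcer1g overlap.

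To compare levels between genes, CPM was divided by the length of the exons of each gene in kb. On this scale Fcgr3 averaged 1148 ± 142 CPM per kb in aOX40 and 2327 ± 483 in IgG (SD, n = 3 and 5), and Fcer1g averaged 1542 ± 660 in aOX40 and 2121 ± 442 in IgG. These neighbours in the order did not differ beyond their spread, with Fcgr3 above Fcer1g in 3 of 8 libraries and a ratio between 0.562 and 1.61. Fcgr4 followed at 248 ± 49.7 CPM per kb in aOX40 and 616 ± 97.8 in IgG, below Fcgr3 by 3.31 to 5.14 times in 8 of 8 libraries. Syk averaged 22.7 ± 5.45 CPM per kb in aOX40 and 39.7 ± 5.94 in IgG. Fcgr2b averaged 14.0 ± 3.77 CPM per kb in aOX40 and 17.9 ± 9.99 in IgG, below Syk in 8 of 8 libraries by 1.13 to 6.29 times. Fcgr1 was lowest in all 8 libraries, at 1.24 ± 0.44 CPM per kb in aOX40 and 1.75 ± 0.70 in IgG.

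**Figure D2:**
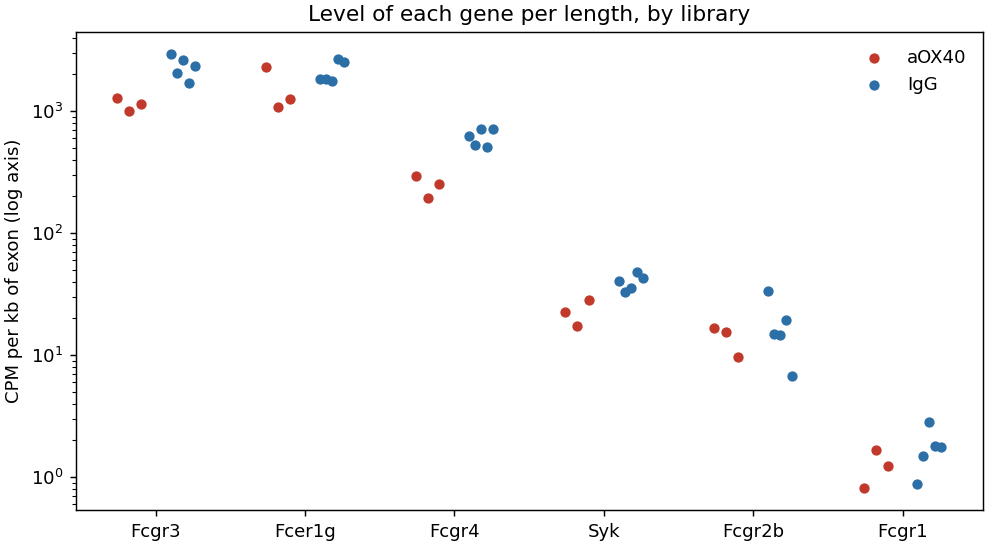
CPM per kb of exon (log axis) of each gene in every library, with aOX40 points left of IgG points. Fcgr3 and Fcer1g share the top, Fcgr4 follows, and Fcgr1 lies lowest, at 1.24 ± 0.44 CPM per kb in aOX40 and 1.75 ± 0.70 in IgG.

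Among the 4 receptors, Fcgr3 made up most of the transcript pool per kb, with 81.5 ± 1.02% in aOX40 and 78.3 ± 2.28% in IgG (SD, n = 3 and 5). Fcgr4 made up 17.4 ± 1.23% in aOX40 and 20.99 ± 2.41% in IgG. The inhibitory Fcgr2b made up 1.00 ± 0.30% in aOX40 and 0.608 ± 0.300% in IgG, and Fcgr1 made up 0.0919 ± 0.0439% in aOX40 and 0.0612 ± 0.0241% in IgG. The ranges of the 2 groups overlapped for all 4 receptors. The ratio of Fcgr3 to Fcgr4 counts was likewise overlapping, with a mean log2 ratio of 2.69 ± 0.12 in aOX40 and 2.37 ± 0.21 in IgG.

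The ratio of activating to inhibitory receptor counts is free of library scaling. The summed counts of Fcgr1, Fcgr3 and Fcgr4 were 26.9, 22.2 and 41.2 times those of Fcgr2b in aOX40 libraries, against 30.0, 49.3, 64.0, 32.1 and 127 times in IgG libraries. Of 3 aOX40 libraries, 2 lay below every IgG library and all 3 lay below the IgG median, but replicate 3 of aOX40 fell within the IgG range. The mean log2 ratio was 4.86 ± 0.46 in aOX40 (SD, n = 3) and 5.71 ± 0.85 in IgG (SD, n = 5), a difference of -0.84, and -0.86 with each gene taken per kb. Both differences are close in size to the SD of the IgG libraries (0.85 on either scale), and no test was made of this sum. Leaving out each library in turn gave differences between -1.09 and -0.52, the last without IgG replicate 6.

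Each activating receptor was also set against Fcgr2b on its own, with an exact two-sided permutation test for which 3 against 5 libraries allow no p below 0.0357. Fcgr4 to Fcgr2b was 3.81, 2.74 and 5.64 in aOX40 libraries, against 3.98, 7.66, 10.5, 5.74 and 22.9 in IgG libraries, a log2 difference of -1.11 (exact p = 0.0714, adjusted over the 3 ratios 0.214). Fcgr3 to Fcgr2b was 23.1, 19.4 and 35.5 in aOX40 libraries, against 26.0, 41.6, 53.3, 26.3 and 104 in IgG libraries, a log2 difference of -0.79 (exact p = 0.179, adjusted 0.268). Fcgr1 to Fcgr2b was 0.0216, 0.0485 and 0.0566 in aOX40 libraries, against 0.0116, 0.0450, 0.0861, 0.0420 and 0.118 in IgG libraries, a log2 difference of -0.26 (exact p = 0.821, adjusted 0.821). None of the 3 ratios passed, and the groups overlapped in each. Without aOX40 replicate 1 the log2 difference of Fcgr1 to Fcgr2b was 0.17 and without IgG replicate 6 it was 0.07, so its sign rests on single libraries.

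**Figure D3:**
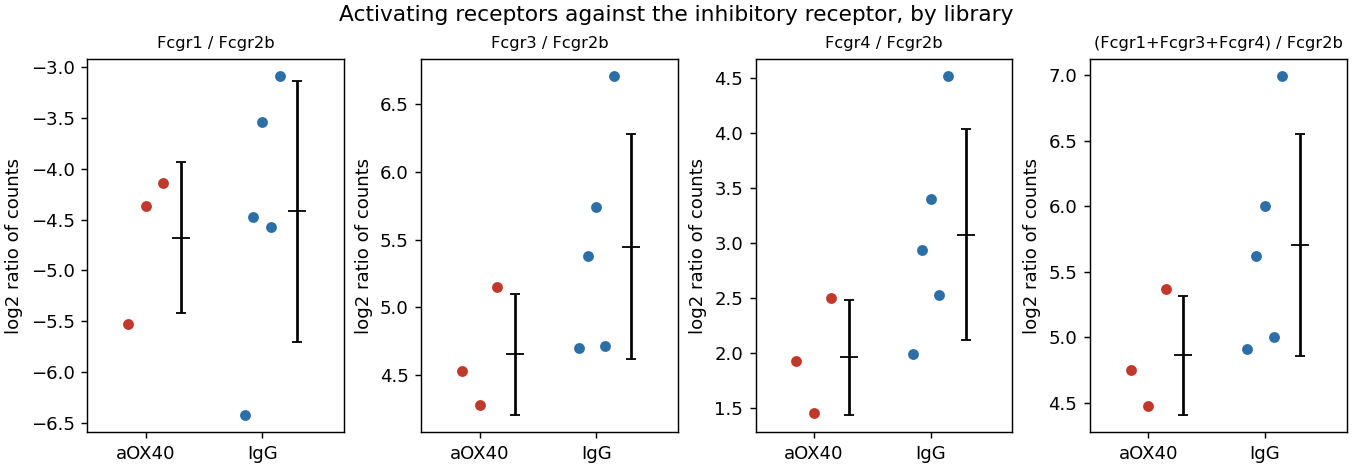
log2 ratio of counts of Fcgr1, Fcgr3, Fcgr4 and their sum to those of Fcgr2b (vertical axes), one point per library, with the mean ± SD as a black mark and bar. The aOX40 points lie mostly low but overlap the IgG points in all 4 panels.

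Receptors were also compared with the chain they pair with. The mean log2 ratio of Fcgr4 to Fcer1g counts was -2.05 ± 0.34 in aOX40 and -1.25 ± 0.40 in IgG, and that of Fcgr3 to Fcer1g was 0.64 ± 0.42 in aOX40 and 1.12 ± 0.54 in IgG (SD, n = 3 and 5). The mean log2 ratio of Syk to Fcer1g was -2.61 ± 0.61 in aOX40 and -2.31 ± 0.15 in IgG. All 3 ratios overlapped between the groups, and these are descriptions with no test.

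The rest of the pathway was read from 5 lists. Over them, 73 of 98 listed genes were tested, and 8 were higher and 1 was lower in aOX40, with a median log2 fold change of 0.26 against 0.05 over all genes. Over all tested genes 2.64% were called higher and 3.0% lower. The lists were described by these counts and were not tested as sets. Leaving out single libraries changed the counts: 0 list genes were called without aOX40 replicate 2, 0 without aOX40 replicate 3 and 5 without IgG replicate 5. The older quasi-likelihood method, the default of the edgeR version used, called 5 list genes, with 5 higher and 0 lower. The split by direction also moved with the method. DESeq2 called 12 list genes higher and 7 lower, beside 501 higher and 932 lower over all genes. Upper quartile factors gave 6 higher and 2 lower, and total counts alone gave 15 and 0.

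Of 14 tested inhibitors of ITAM signalling, 3 were higher and 1 was lower, with a median log2 fold change of 0.61. Ptpn6 encodes the phosphatase SHP-1, which removes phosphate from ITAM pathway proteins. It was at 346, 501 and 419 CPM in aOX40 libraries, against 77.4, 173, 218, 143 and 156 CPM in IgG libraries, with no overlap (log2 fold change 1.46, SE 0.28, adjusted p = 0.0207, edgeR). Ubash3b encodes a phosphatase that acts on Syk. Its level was 14.4, 22.8 and 28.3 CPM in aOX40 libraries, against 3.04, 5.44, 2.53, 6.83 and 3.61 CPM in IgG libraries (log2 fold change 2.33, SE 0.36, adjusted p = 0.0112, edgeR). Lair1, an inhibitory collagen receptor, was at 64.0, 54.5 and 50.9 CPM in aOX40 libraries, against 9.34, 16.3, 21.5, 24.4 and 20.9 CPM in IgG libraries (log2 fold change 1.60, SE 0.28, adjusted p = 0.0153, edgeR). All 3 were clear of the IgG range. Pag1, a membrane adaptor that brings the Src family inhibitor Csk to the membrane, went the other way, with 45.9 ± 9.91 CPM in aOX40 libraries and 126 ± 64.4 CPM in IgG libraries (SD, n = 3 and 5; log2 fold change -1.46, SE 0.37, adjusted p = 0.0460, edgeR). The calls of Ptpn6, Ubash3b and Lair1 were lost without aOX40 replicate 2 (adjusted p = 0.118, 0.0674 and 0.0824, in that order, edgeR) and without aOX40 replicate 3 (0.0766, 0.0531 and 0.0531). Pag1 was called in 7 of 18 alternative analyses, and of the 8 that leave out a library only in those without IgG replicates 2 and 6 (adjusted p from 0.0345 to 0.192 over the 8, edgeR). The phosphatase that Fcgr2b itself recruits, SHIP-1, is encoded by Inpp5d, which was on this list and did not pass. Inpp5d was at 60.8, 73.4 and 92.4 CPM in aOX40 libraries, against 91.6, 105, 111, 121 and 115 CPM in IgG libraries. Its log2 fold change was -0.53 (SE 0.21, adjusted p = 0.146, edgeR), below 0 where the median of the list was above 0.

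Among 21 tested Src family kinases and ITAM adaptors, 2 were higher and 0 lower, with a median of 0.18. Among those higher, Shc1, an adaptor of the Ras pathway, was at 29.2, 38.3 and 32.8 CPM in aOX40 libraries, against 5.66, 12.9, 7.41, 12.0 and 9.35 CPM in IgG libraries (log2 fold change 1.81, SE 0.28, adjusted p = 0.0110, edgeR). Its call was lost without aOX40 replicate 2 (adjusted p = 0.0786, edgeR) and without aOX40 replicate 3 (0.0503). Bcl10 (log2 fold change 1.05, adjusted p = 0.0530) and Gab2 (-1.05, adjusted p = 0.0555, edgeR), both signalling adaptors, did not pass.

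Of 20 tested effectors below Syk, 1 was higher and 0 were lower, with a median of 0.24. It was Pik3cb, a catalytic subunit of PI3-kinase, at 26.4, 32.7 and 12.9 CPM in aOX40 libraries, against 7.55, 13.9, 9.53, 8.50 and 8.84 CPM in IgG libraries (log2 fold change 1.32, SE 0.34, adjusted p = 0.0467, edgeR). Its groups overlapped, and it was called in 5 of 18 alternative analyses and in none of the 8 that leave out a library (adjusted p from 0.0503 to 0.231, edgeR). The calcium channel gene Itpr2 (log2 fold change -1.04, adjusted p = 0.0522), the phospholipase gene Plcg2 (1.47, adjusted p = 0.0677) and the PI3-kinase adaptor gene Pik3ap1 (-0.91, adjusted p = 0.0721, edgeR) did not pass. With upper quartile factors 0 of the 20 were called higher and 1 was called lower, and with DESeq2 2 were higher and 2 lower.

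Of 14 tested genes on the list of other receptors that signal through the FcRgamma chain or DAP12, 2 were higher and 0 were lower, with a median of 0.20. The list also holds DAP12 itself, the adaptor Hcst and the inhibitory receptor Pirb, which are not such receptors. Pira2, an activating receptor that pairs with FcRgamma, was at 94.2, 98.3 and 66.5 CPM in aOX40 libraries, against 20.0, 27.0, 32.1, 38.1 and 43.9 CPM in IgG libraries (log2 fold change 1.42, SE 0.27, adjusted p = 0.0190, edgeR). It belongs to a multigene family of near copies, so its counts are uncertain, and its call was lost without aOX40 replicate 2 (adjusted p = 0.115, edgeR) and without aOX40 replicate 3 (0.0503). Cd300lb, which pairs with DAP12, was at 161, 267 and 255 CPM in aOX40 libraries, against 67.2, 118, 158, 103 and 89.2 CPM in IgG libraries (log2 fold change 1.09, adjusted p = 0.0467, edgeR), and was called in 8 of 18 alternative analyses. Of the 8 that leave out a library it passed only in those without aOX40 replicate 1 and IgG replicate 4 (adjusted p from 0.0301 to 0.210 over the 8, edgeR). The adaptor Hcst (log2 fold change -0.88, adjusted p = 0.0616) and the lectin Clec4e (0.82, adjusted p = 0.0950, edgeR) did not pass. Of 4 tested genes among other Fc receptors and antibody-binding proteins, Trim21, Lgals3, Fcrlb and Fcrl1, 0 were higher and 0 were lower at the threshold. Their adjusted p ran from 0.262 to 0.775 (edgeR).

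**Figure D4:**
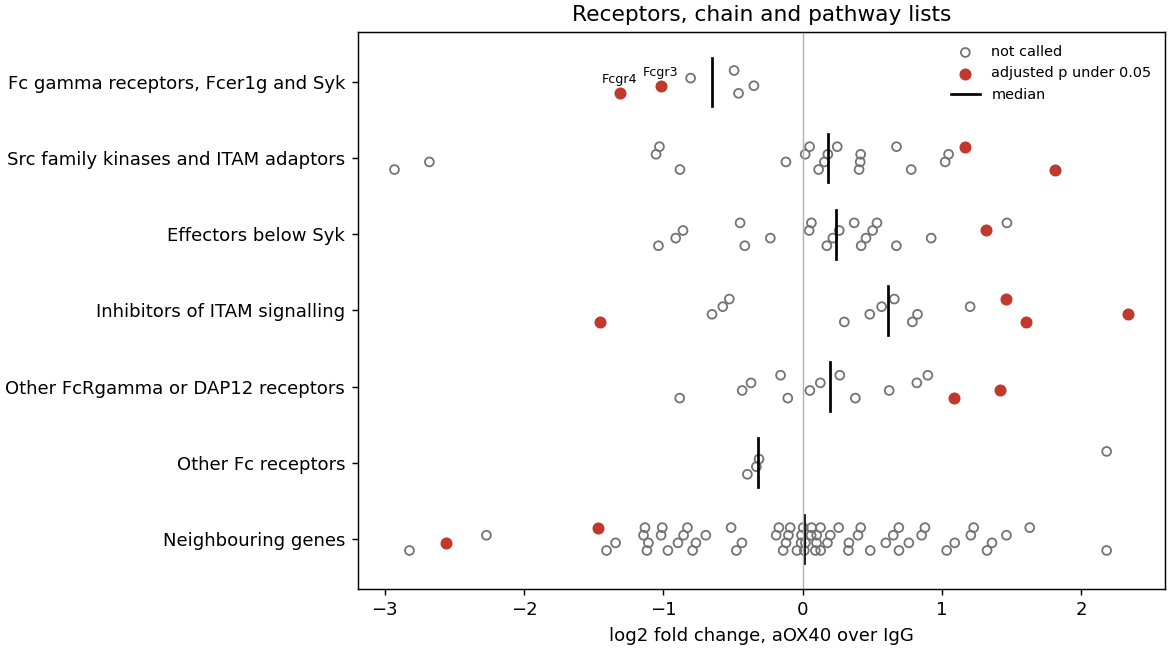
log2 fold change of aOX40 over IgG (horizontal axis) for the tested genes of the family, of each pathway list and of the neighbouring genes; filled points have an adjusted p under 0.05 and black bars are medians. The median of the family is -0.65, and the medians of the list of inhibitors and of the list of other FcRgamma or DAP12 receptors are 0.61 and 0.20. That of the other Fc receptors, with 4 tested genes, is -0.32.

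Within 500 kb of the 6 genes, 65 neighbours were tested, of which 0 were higher and 2 were lower, with a median log2 fold change of 0.01. That is close to the 3.0% of all tested genes that were called lower, so nothing about the loci is read from it. Ciart, a circadian repressor gene on chromosome 3, averaged 38.4 ± 16.6 CPM in aOX40 libraries and 226 ± 108 CPM in IgG libraries (SD, n = 3 and 5; log2 fold change -2.56, adjusted p = 0.0162, edgeR). B4galt3, a galactosyltransferase gene beyond Fcer1g on chromosome 1, averaged 95.1 ± 29.5 CPM in aOX40 libraries and 263 ± 90.8 CPM in IgG libraries (log2 fold change -1.47, adjusted p = 0.0282, edgeR). Both calls were lost without aOX40 replicate 2 (adjusted p = 0.115 for Ciart and 0.141 for B4galt3, edgeR) and without aOX40 replicate 3 (0.0772 and 0.0691). That of B4galt3 was also lost without aOX40 replicate 1 (0.0749) and without IgG replicate 6 (0.0513). F11r, a junctional adhesion molecule gene, had a log2 fold change of 1.32 and did not pass (adjusted p = 0.0762, edgeR).

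Across the 8 libraries, Fcgr3 and Fcgr4 varied together, with a Pearson r of 0.96 for log2 CPM, and 0.75 after the group means were subtracted. For Fcgr4 and Syk, r was 0.86 over all libraries and 0.26 within groups, and for Fcgr2b and Fcgr3 it was 0.22 and 0.19. These correlations share libraries and their scaling, and those over all libraries also hold the group difference. Among 4942 genes with a mean of at least 10 CPM, Ing3, a gene of the inhibitor of growth family, was among the 3 with the pattern most like that of Fcgr3 (r = 0.99, within groups 0.94). The pattern most like that of Fcgr4 was that of Gla, the alpha-galactosidase gene (0.99, within groups 0.97), and for Syk it was 1600022D10Rik (0.98, within groups 0.93). For Fcgr2b it was Impa2, an inositol monophosphatase gene (0.98, within groups 0.99), for Fcer1g Gm12840 (0.98, within groups 0.97) and for Fcgr1 Dclre1c (0.94, within groups 0.93). Each was picked from the highest of 4942 genes over only 8 libraries, where high values of r arise readily. The r within groups uses the same libraries and is no separate check. They are given as a description, with no p.

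Fc gamma receptors are also carried by macrophages, B cells and NK cells, whose markers were read beside the receptors. Of 12 listed monocyte and macrophage markers 9 were in the table, and they summed to 498 to 763 CPM in aOX40 and 332 to 694 CPM in IgG, mostly from Ly6c2, which neutrophils can also express. Csf1r, the receptor for macrophage colony-stimulating factor, ran from 38.0 to 75.6 CPM in aOX40 libraries and from 4.51 to 25.1 CPM in IgG libraries, without overlap (log2 fold change 1.54, adjusted p = 0.0546, edgeR, not past the threshold). Adgre1, which encodes F4/80, averaged 21.6 ± 6.37 CPM in aOX40 libraries and 6.12 ± 2.62 CPM in IgG libraries (SD, n = 3 and 5; log2 fold change 1.81, adjusted p = 0.0248, edgeR), opposite in direction to Fcgr3 and Fcgr4. The complement genes C1qa, C1qb and C1qc reached at most 1.11, 1.81 and 1.89 CPM in any library, all in IgG, and Mertk reached at most 0.864 CPM in aOX40 and was at 0 in every IgG library. Of 8 listed NK cell markers 2 were in the table and summed to 0 to 0.323 CPM in aOX40 and 0 to 1.12 CPM in IgG. Of 8 listed B cell markers 3 were in the table and summed to 65.1 to 77.7 CPM in aOX40 and 30.5 to 251 CPM in IgG, almost all from Ighm, while Cd79a reached at most 0.861 CPM and Cd22 at most 0.405 CPM in any library. Dendritic cell markers, mostly Itgax, summed to 11.3 to 20.5 CPM in aOX40 and 22.9 to 42.4 CPM in IgG, without overlap and in the same direction as Fcgr3 and Fcgr4. Flt3 and Zbtb46, defining dendritic cell genes, reached at most 0.161 and 0.550 CPM in any library. Their means were higher in aOX40, at 0.0538 and 0.192 CPM, against 0.00354 and 0.111 CPM in IgG, with overlapping ranges. Xcr1 and Clec9a, markers of cross-presenting dendritic cells, averaged 0.361 and 0.155 CPM in aOX40 and 1.22 and 0.483 CPM in IgG, so their means were lower in aOX40, as for Fcgr3 and Fcgr4, but their ranges overlapped. The highest IgG libraries reached 3.58 CPM for Xcr1 and 2.09 CPM for Clec9a, and the part of other cells in the receptor results was not tested further. Platelet markers summed to 0.651 to 1.47 CPM in aOX40 and 2.84 to 6.96 CPM in IgG, also without overlap. Markers of mast cells, basophils and eosinophils summed to 5.54 to 14.4 CPM in aOX40 and 1.75 to 12.4 CPM in IgG, and those of T cells to 1.40 to 17.1 CPM in aOX40 and 1.21 to 3.70 CPM in IgG. Of the 12 listed neutrophil genes 2 were called, where 5.65% of all tested genes were called in either direction. They were the granule protease genes Mmp8 (log2 fold change 1.19, adjusted p = 0.0443) and Mmp9 (1.28, adjusted p = 0.0467, edgeR), both higher in aOX40. Means of S100a8, Ly6g, Lcn2 and Ltf were also higher in aOX40, and those of S100a9, Csf3r, Cxcr2, Retnlg, Camp and Ngp were lower. The part of these genes in the receptor results was not tested.

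Scaling moved the sizes of the changes of the 6 genes and not their direction. With total counts alone, and no TMM factors, the median over all genes was 0.35, where TMM factors gave 0.05, and 874 genes were called higher and 246 lower. Fcgr3 then had a log2 fold change of -0.72 and Fcgr4 one of -1.02, both still called, and the median of the 6 genes differed from that of all genes by -0.70, where TMM factors gave -0.69. All 6 fitted changes lay below 0 with RLE, upper quartile and TMM factors and with total counts alone.

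**Figure D5:**
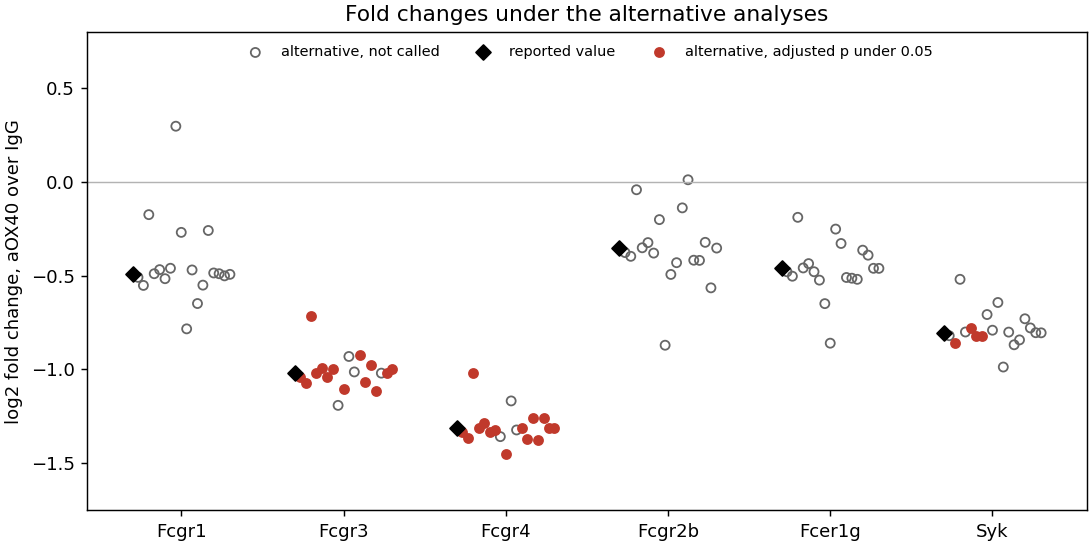
log2 fold change of aOX40 over IgG (vertical axis) for each of the 6 genes, as reported (black diamonds) and under the alternative analyses (circles, filled where the adjusted p is under 0.05). Fcgr3 is called in 14 of 18 and Fcgr4 in 15 of 18 alternatives, Syk in 4 of 18, and Fcgr1, Fcgr2b and Fcer1g in 0.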

How the data were processed

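The authors deposited a table of unscaled estimated counts per gene symbol. STAR 2.6.0, Subread, featureCounts 1.5.1 and the build mm10 are named in the submitters' processing notes. The annotation, the strand setting and the rule for reads that match several genes are not stated in the sources used here. Within 0.01, 63.4% of the deposited estimated counts were whole.

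Estimated counts were rounded, filtered with filterByExpr by group and scaled with TMM factors, and aOX40 was compared with IgG in R 4.3.3 by the quasi-likelihood F test of edgeR 4.0.16 (with limma 3.58.1). Benjamini-Hochberg adjustment ran over all 13278 tested genes, with a threshold of 0.05. Standard errors came from the F statistic. Levels are CPM with TMM factors, and CPM per kb uses the union of exons in GENCODE M21. For ratios of counts, an exact permutation test (two-sided) ran over all 56 assignments of the 8 libraries.

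The choice of quasi-likelihood method was made after its results had been seen. The written plan did not name it, and the default of this edgeR version is the older method, which called 320 genes. In all, 6 settings were compared, which called 750, 748, 680, 320, 325 and 325 genes. The newer method with estimated dispersions was kept because its 750 calls match an earlier analysis of the same table. Fcgr3 and Fcgr4 passed and the other 4 genes did not under each of the 6 settings, but the number of pathway list genes called depends on it.

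The 6 genes and all lists were chosen with earlier results of these data known. Genes named besides the 6 are up to 4 members of each list, and of the neighbours within 500 kb, with the smallest adjusted p, and the 3 genes most correlated with each of the 6, of which 1 is described for each. Inpp5d was named besides these because Fcgr2b recruits its product. The marker genes Adgre1, Csf1r, Mmp8, Mmp9 and the low markers were named after their values were seen. DESeq2 1.42.0, limma voom, other scalings and filters, each library left out and the replicate number as a block were tried as alternatives. The older method and the sum of Fcgr2b and Fcgr3, which cannot find reads lost as ambiguous, were added after the data were seen. The procedure was tested on simulated data. Listed genes that are missing from the counts given were not analysed here, and some genes that the rule names are not reported here.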

Additional observations from a re-analysis of the deposited data

How the results depend on the processing

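The number of genes called moved from 750 to 452 without a filter, 1433 with DESeq2, 320 with the older quasi-likelihood method and 0 with the replicate block (2594 at an unadjusted p under 0.05). Leaving out each library gave 0 to 589, with 0 without aOX40 replicate 2 (2230 at an unadjusted p under 0.05) and 59 without aOX40 replicate 3. Fcgr3 kept its direction in 18 of 18 alternatives and its call in 14, and Fcgr4 in 18 and 15. Without single libraries their log2 fold changes ran from -1.12 to -0.92 and from -1.45 to -1.17. Syk passed with upper quartile factors (-0.86), at least 10 counts in every library (-0.78), DESeq2 (-0.82) and limma voom (-0.82). Fcgr2b ran from -0.56 to 0.0125 without single libraries, the last without IgG replicate 2. The 9 pathway list genes called became 15 with total counts alone, 5 without a filter, 19 with DESeq2, 5 with the older method, 0 with the replicate block and 0 to 8 without single libraries. The causes were not tested.

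The groups share only the replicate numbers 2 and 3, and nothing in the labels says that a number marks a shared animal or batch. Deviations from the group means correlated at 0.02 for the libraries numbered 2 and at 0.05 for those numbered 3. Pairs with unlike numbers ran from -0.04 to 0.03. So few libraries cannot decide whether the numbers pair them, and no conclusion is drawn. With the replicate block Fcgr3 had a log2 fold change of -1.19 and Fcgr4 one of -1.36 (both adjusted p = 0.238, edgeR), Fcgr1 turned to 0.30 (adjusted p = 0.809) and Fcrl1 to 1.88 (adjusted p = 0.286).

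With 2 against 5 or 3 against 4 libraries the smallest exact permutation p is 0.0952 or 0.0571, so no ratio was tested without a library. The low level of Fcgr1 and the unknown division of reads between Fcgr2b and Fcgr3 limit the ratios to Fcgr2b.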
